A study of Arabidopsis thaliana with 33 samples.

Results

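A set of 150 Arabidopsis genes was examined whose transcripts peaked after 4 days on shoot-inducing medium in low-light Col-0 explants, out of 27261 protein-coding loci in the count table. Each locus was scored as its mean log2(CPM + 1) at SIM 4D minus the highest of its T0, CIM 4D and SIM 8D means, where CPM is the count scaled to a library total of 1e+06, and the members were chosen by this score as its 150 highest values. The scores used Col-0 in low light alone and ran from 0.809 to 1.70, so levels in those 12 libraries are description and were not tested. Hypocotyl explants came from 7-day seedlings. T0 is the explant before culture, CIM 4D is 4 days on callus-inducing medium with 2,4-D at 0.5 mg/L and kinetin at 0.1 mg/L, and SIM 4D and SIM 8D are 4 and 8 further days on shoot-inducing medium with IAA at 0.15 mg/L and 2-iP at 0.5 mg/L. The groups, with 3 biological replicates each, were the hy5-2 mutant at T0 in low light and at CIM 4D, SIM 4D and SIM 8D in high light, Col-0 at CIM 4D, SIM 4D and SIM 8D in high light, and Col-0 at T0, CIM 4D, SIM 4D and SIM 8D in low light. Light was set at 40 µmol m-2 s-1 for the high-light groups and at 2 µmol m-2 s-1 for the low-light ones, and all explants were cultured at 22 °C. The mutant is represented by 1 allele, hy5-2 was cultured in high light only, and no rescued line is among the groups.

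HY5 is a bZIP transcription factor that carries light signals from photoreceptors to gene expression. In whole seedlings it promotes photomorphogenesis and shapes root growth. Callus made from hypocotyls on auxin-rich medium arises through a root-like programme, and the cytokinin-rich shoot-inducing medium turns part of it towards shoot formation. Root hairs are tip-growing tubes of single epidermal cells. The bHLH factor RSL4 drives their growth, and wall proteins such as extensins, wall-loosening expansins, xyloglucan-modifying enzymes and peroxidases build and remodel the hair wall.

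Genes of root hair walls and growth were the largest recognisable group among the 150. A list of 39 root hair wall and growth genes shared 29 genes with the set, and a list of 15 root hair regulators shared RSL4 and LRL3. RefSeq names the product "root hair" for 10 members, which is 6.67% of the set against 0.0807% of all protein-coding loci. Together 34 members were on either list or carried that name, and they are called the root hair members below. The other members are set apart by these lists and names alone and still hold hair genes such as ROPGEF10. By product name 12 members were extensins (8% against 0.205% of all loci), 9 were peroxidases (6% against 0.367%), 4 were xyloglucan enzymes (2.67% against 0.128%), 2 were expansins, 4 were pectin enzymes or their inhibitors, 3 were cytochromes P450 and 2 were laccases. Other lists gave little: 1 of 56 xylem genes, VND7, and 1 of 18 suberin genes, ABCG6, were members, and the lists for lignin enzymes, endodermis, phloem, root cap and type-A response regulators held no member. The members lie on chromosomes 1 to 5 with 29, 27, 26, 28 and 40 genes. The pectin lyase-like gene AT1G70500 had the highest score. The last gene inside the threshold, AT3G01730, averaged 0.0461, 0, 1.30 and 0.306 CPM from T0 to SIM 8D in low light, and the first outside, CYCP4;2, averaged 0.123, 0.0967, 4.42 and 2.07 CPM.

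The upstream sequences of the root hair members are shown because 10 of the 34 hold a match to the root hair element, a site known from promoters of Arabidopsis root hair genes and bound by RSL4. Matches were sought on both strands in the 250 bases before each RefSeq gene start (build TAIR10.1). The matched bases are in capitals with 20 bases on either side, read 5′ to 3′ on the gene's strand, for the 6 with the highest score.
PRP3 (chr3:23182535-23182591, TAIR10.1, plus strand): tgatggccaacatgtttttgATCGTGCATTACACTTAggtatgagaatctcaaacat
RHS18 (chr5:7426198-7426253, TAIR10.1, plus strand): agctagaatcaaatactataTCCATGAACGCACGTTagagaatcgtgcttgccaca
EXPA18 (chr1:23331503-23331558, TAIR10.1, plus strand): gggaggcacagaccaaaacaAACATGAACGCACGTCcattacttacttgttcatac
EXPA7 (chr1:4276407-4276463, TAIR10.1, plus strand): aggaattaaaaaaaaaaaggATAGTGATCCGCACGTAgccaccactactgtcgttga
RHS13 (chr4:993213-993269, TAIR10.1, minus strand): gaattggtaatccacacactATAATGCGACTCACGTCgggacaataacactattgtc
LRX1 (chr1:4069879-4069934, TAIR10.1, plus strand): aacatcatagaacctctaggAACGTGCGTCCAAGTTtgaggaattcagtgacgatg

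The element lay 24 to 193 bases before the gene start in the 10 root hair members (median 76.5), in the gene's orientation in 5 and in the opposite one in 5. PRP3 and LRX1 carry it in the opposite orientation, and RHS18, EXPA18, EXPA7 and RHS13 in the same one. A match was present in 29.4% of the root hair members, in 6.9% of the 116 other members and in 0.76% of 26710 protein-coding loci. The element is known from promoters of root hair genes. Its share among members picked by root hair lists and names may thus be partly set by that choice. The looser core, TG and CACG with 4 or 5 bases between them, was present in 61.8%, 25.9% and 9.1% of the same groups. The G-box CACGTG, a site that HY5 can bind and whose first letters can overlap the core, was in 10 of the 150 upstream windows, none of them of a root hair member, or 6.67% against 6.58% of all loci. The vessel element, which reads CTTN, AAAG and CNA without a break and is known as a VND7 target sequence, was in 3 members, or 2% against 0.378% of all loci. These are matches of letters and no measure of binding.

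Members were measured in 33 libraries of 7.24 to 21.18 M counts. HY5 averaged 2.33 to 3.67 CPM in the 4 hy5-2 groups, 32.2 to 46.0 CPM in high-light Col-0 and 7.43 to 20.5 CPM in low-light Col-0, and HYH, its closest homologue, was below 1 CPM in the cultured hy5-2 groups. The 150 members took 0.565, 0.598 and 0.772% of all counts in the hy5-2 libraries at SIM 4D, 0.275, 0.314 and 0.481% in high-light Col-0 and 0.444, 0.403 and 0.582% in low-light Col-0. At SIM 8D their share was 0.208, 0.239 and 0.300% in hy5-2, 0.182, 0.160 and 0.177% in high-light Col-0 and 0.190, 0.162 and 0.233% in low-light Col-0. The peak at SIM 4D was thus present in hy5-2 and in high-light Col-0, which has no T0 group. In low-light Col-0 it was set by the score. The shares of hy5-2 and high-light Col-0 did not overlap at either SIM stage, and replicate 3 had the highest share of its group at SIM 4D in all 3 series.

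**Figure D1:**
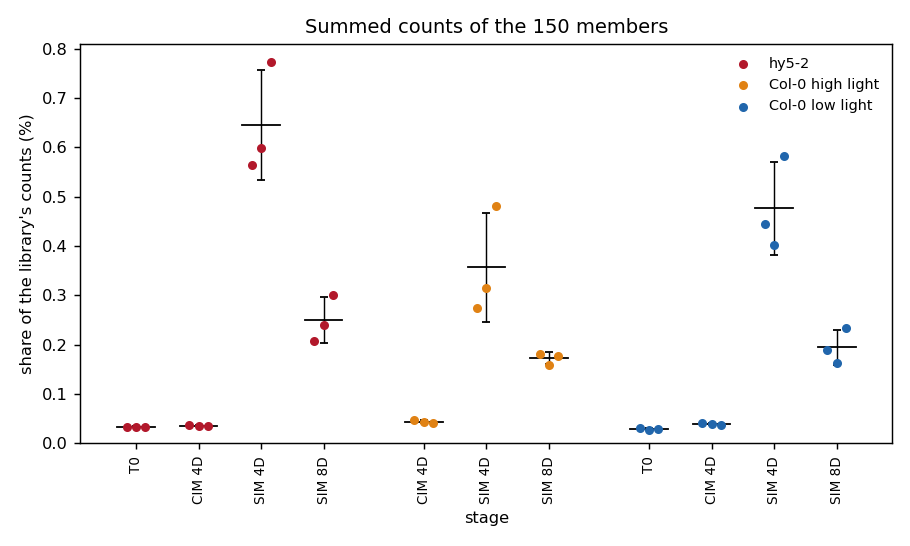
Percent of all counts taken by the 150 genes in each of the 33 libraries (y axis), by culture stage (x axis) and series; each dot is a library. At SIM 4D the hy5-2 libraries lie at 0.565 to 0.772%, the high-light Col-0 libraries at 0.275 to 0.481% and the low-light Col-0 libraries at 0.403 to 0.582%.

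Before culture and on callus medium many members had no counts. No count was found in any of the 3 libraries for 47 members in hy5-2 at T0, 40 in hy5-2 at CIM 4D, 29 in high-light Col-0 at CIM 4D, 40 in low-light Col-0 at T0 and 37 in low-light Col-0 at CIM 4D. The 34 root hair members summed to 7.84, 8.999 and 10.5 CPM at T0, 22.4, 28.9 and 28.4 CPM at CIM 4D, 1539, 1740 and 2379 CPM at SIM 4D, and 549, 678 and 902 CPM at SIM 8D in hy5-2. In high-light Col-0 the sums were 28.7, 39.4 and 35.4 CPM at CIM 4D, 533, 725 and 1236 CPM at SIM 4D, and 383, 394 and 408 CPM at SIM 8D. Low-light Col-0 had sums of 9.45, 17.8 and 12.2 CPM, 42.4, 44.6 and 42.9 CPM, 1197, 1045 and 1854 CPM, and 525, 424 and 683 CPM at the 4 stages. In each series the SIM 4D libraries stood above all others, though in low-light Col-0 the score chose the members for this. At SIM 4D the lowest hy5-2 sum was above the highest high-light Col-0 sum. The tissue is bulk, so a change in the number of hair-forming cells and a change of RNA per cell cannot be told apart.

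**Figure D2:**
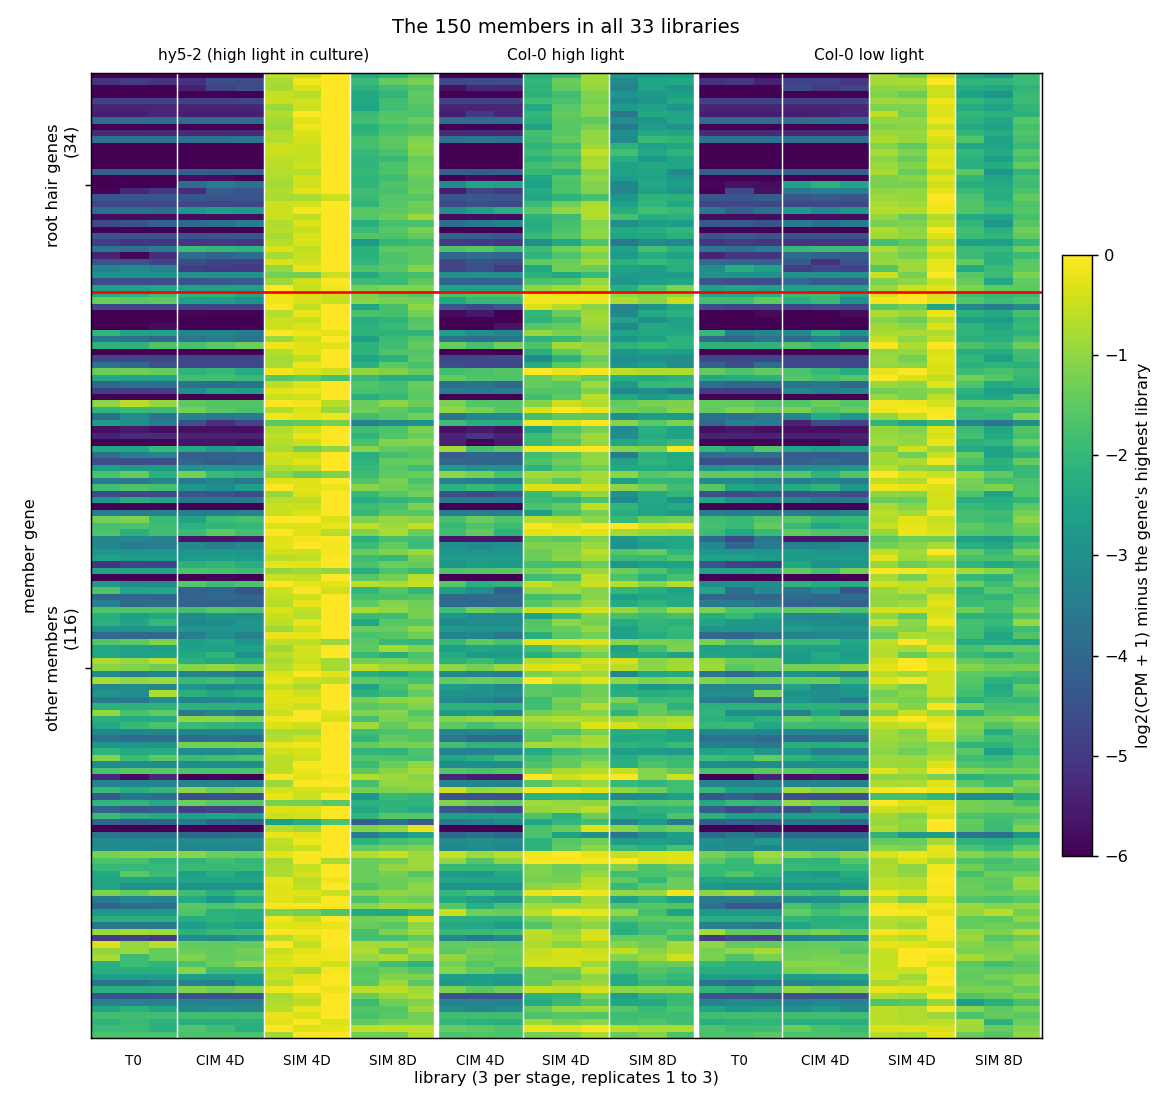
Level of each of the 150 genes (rows; root hair members above the red line) in each of the 33 libraries (columns), as log2(CPM + 1) minus the highest value of that gene, in the order hy5-2, high-light Col-0 and low-light Col-0 with stages from T0 to SIM 8D. The SIM 4D columns are the brightest of each block, and 47 rows hold no count at T0 in hy5-2.

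Changes were tested in the 21 libraries that the score did not use, with edgeR's quasi-likelihood test, and rose and fell are used where the p-value, adjusted by Benjamini-Hochberg across the 20679 genes tested, was under 0.05. At SIM 4D relative to CIM 4D in high-light Col-0, 145 of the 150 members rose, while 27.4% of all tested genes did. In hy5-2, 147 members rose over the same step against 26.2% of all genes, and 145 were higher at SIM 4D than at T0 against 38.9% of all genes. T0 in hy5-2 was in low light, so that last step also spans the change of light. At SIM 8D relative to SIM 4D, 107 members fell in high-light Col-0 against 10.9% of all genes, and 139 fell in hy5-2 against 11.2%. None rose over that step by edgeR, at an unadjusted p under 0.05 (0 members) or by DESeq2 (0 members), while 11.4% of all genes rose in high-light Col-0 and 8.66% in hy5-2. The median change of log2(CPM + 1) over this step was −1.22 in hy5-2 and −0.83 in high-light Col-0, with all-gene medians of −0.0167 and 0.00395. All 150 members passed the filter on low counts, but many did so through SIM 4D: 57 reached its level of 0.949 CPM in T0 and CIM 4D libraries alone, and of those 54 rose at SIM 4D relative to CIM 4D in each genotype. The members that did not pass at SIM 4D relative to CIM 4D were AT2G39855, AT5G55270, RHS16, CLL2 and ABCA3 in high-light Col-0 and AT5G55270, EMB1030 and AT3G03670 in hy5-2, some of them named here after their values were seen.

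The 34 root hair members moved together over the culture stages. In hy5-2 all 34 rose at SIM 4D relative to CIM 4D, by a median of 4.49 in log2(CPM + 1), and 33 fell at SIM 8D, with a median change of −1.33. In high-light Col-0, 33 rose by a median of 3.29 and 28 fell at SIM 8D, with a median change of −0.96. Without high-light Col-0 SIM 4D replicate 3, the library with the highest level of that group, 16 of the 34 fell. Of all tested genes, 26.2% rose and 11.2% fell over these steps in hy5-2, and 27.4% and 10.9% in high-light Col-0. Many of the 34 had few or no counts at CIM 4D and passed the filter on low counts through SIM libraries. For those a rise was close to set by the filter, so the share of all tested genes is no even measure. On the list of 39 root hair wall and growth genes, 28 averaged under 1 CPM at CIM 4D in each genotype in high light.

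RSL4 (AT1G27740, chromosome 1, 9654688 to 9656089 in the count table), the regulator of hair growth, followed this course. In hy5-2 it had 0, 0.132 and 0.475 CPM at T0, 0.617, 0.806 and 1.32 CPM at CIM 4D, 14.4, 19.3 and 24.4 CPM at SIM 4D, and 4.43, 6.56 and 6.66 CPM at SIM 8D. In high-light Col-0 it had 0.743, 1.10 and 1.58 CPM at CIM 4D, 4.22, 6.56 and 10.5 CPM at SIM 4D, and 2.13, 2.98 and 3.06 CPM at SIM 8D. Low-light Col-0 had 0.231, 0.330 and 0.138 CPM, 1.21, 0.773 and 1.24 CPM, 9.90, 10.3 and 16.5 CPM, and 5.23, 2.64 and 7.42 CPM at the 4 stages. All hy5-2 libraries at SIM 4D were above all high-light Col-0 libraries of that stage. RSL4 rose at SIM 4D relative to CIM 4D by 4.38 ± 0.35 (log2 fold change ± SE) in hy5-2 (adjusted p = 1.05e-09) and by 2.73 ± 0.37 in high-light Col-0 (adjusted p = 2.69e-06). It was higher in hy5-2 than in Col-0 at SIM 4D by 1.34 ± 0.25 (adjusted p = 0.000401), and at CIM 4D the difference of −0.30 ± 0.53 did not pass (adjusted p = 0.772). The list of 15 root hair regulators as a whole was split over the step from CIM 4D to SIM 4D. Of 12 tested, 5 rose and 4 fell in high-light Col-0, against 27.4% and 21.4% of all tested genes. In hy5-2, 6 rose and 4 fell, against 26.2% and 26.5%.

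LRL3 (AT5G58010, chromosome 5, 23483545 to 23484889), another bHLH gene of root hair development, was almost without counts before SIM. It had 0, 0 and 0 CPM at T0 and 0.0771, 0.147 and 0.265 CPM at CIM 4D, then 11.9, 16.6 and 22.8 CPM at SIM 4D and 5.42, 5.22 and 7.45 CPM at SIM 8D in hy5-2. High-light Col-0 had 0.413, 0.344 and 0.376 CPM at CIM 4D, 6.20, 6.63 and 11.5 CPM at SIM 4D, and 2.26, 2.98 and 3.50 CPM at SIM 8D. At SIM 4D it was higher in hy5-2 than in Col-0 by 1.00 ± 0.22 (adjusted p = 0.00226), and its libraries did not overlap.

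The extensins reached the highest levels of the set. AT3G54580 and its neighbour HRGP1, a hydroxyproline-rich glycoprotein gene, had the highest CPM of all members at SIM 4D in hy5-2 and are named for that; in both Col-0 series AT3G54580 was also first, while the extensin-like gene AT3G28550 was above HRGP1. AT3G54580 had 869, 909 and 1234 CPM at SIM 4D in hy5-2, 351, 429 and 808 CPM in high-light Col-0 and 638, 533 and 809 CPM in low-light Col-0. At CIM 4D it had 0, 0.0732 and 0 CPM in hy5-2 and 2.06, 2.06 and 2.03 CPM in high-light Col-0. The 12 extensin members together summed to 2354, 2432 and 3380 CPM at SIM 4D in hy5-2 and to 926, 1135 and 2175 CPM in high-light Col-0. All 12 rose at SIM 4D relative to CIM 4D in both genotypes, against 26.2% of all tested genes in hy5-2 and 27.4% in high-light Col-0. Their sums at CIM 4D were 0.385, 0.732 and 0.661 CPM in hy5-2. Most of the 12 thus passed the filter on low counts through SIM libraries, and their rise was close to set by it. The 12 include MOP10 and AT3G09925, which RefSeq names Pollen Ole e 1 allergen and extensin family proteins. Between genotypes at SIM 4D the ranges did not overlap for the sums, and 9 of the 12 were called higher in hy5-2, against 9.83% of all tested genes. That count rested on few libraries: it was 1 without hy5-2 SIM 4D replicate 3, 2 without high-light Col-0 replicate 2 and 3 without high-light Col-0 replicate 1.

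EXT12 (AT4G13390, chromosome 4, 7783818 to 7785326), with the highest score of the extensins, had 0, 0 and 0 CPM at CIM 4D, 143, 149 and 213 CPM at SIM 4D, and 41.7, 50.1 and 71.4 CPM at SIM 8D in hy5-2. In high-light Col-0 it had 0, 0.0688 and 0 CPM at CIM 4D, 45.5, 54.2 and 118 CPM at SIM 4D, and 29.7, 30.4 and 33.2 CPM at SIM 8D. Its hy5-2 level at SIM 4D was at least 2340-fold that at CIM 4D, taking 3 counts over the group as the limit for a group without counts. At SIM 8D relative to SIM 4D it fell by 1.60 ± 0.31 in hy5-2 (adjusted p = 0.00216) and by 1.27 ± 0.33 in high-light Col-0 (adjusted p = 0.0147). The difference between genotypes at SIM 4D, 1.17 ± 0.30 (adjusted p = 0.0121), missed the threshold without high-light Col-0 replicate 2 (adjusted p = 0.0548) and without hy5-2 replicate 3 (adjusted p = 0.0585).

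PRP3, a proline-rich wall protein gene of root hairs and 1 of the genes with the root hair element shown above, kept its call in each such test at SIM 4D. It had 0, 0 and 0.0661 CPM at CIM 4D, 138, 128 and 205 CPM at SIM 4D, and 39.5, 48.8 and 73.6 CPM at SIM 8D in hy5-2. High-light Col-0 had 0.330, 0.344 and 0.226 CPM at CIM 4D, 45.1, 56.2 and 92.7 CPM at SIM 4D, and 27.6, 28.8 and 32.7 CPM at SIM 8D. PRP3 was higher in hy5-2 than in Col-0 at SIM 4D by 1.24 ± 0.25 (adjusted p = 0.00149), and the libraries of the 2 groups did not overlap.

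The wall-loosening expansins EXPA18 and EXPA7 and the gene RHS18, all with the element, had few or no counts before SIM. EXPA18 had no count in any of the 12 libraries of T0 and CIM 4D in hy5-2 or low-light Col-0 and none in high-light Col-0 at CIM 4D. At SIM 4D it had 21.9, 28.9 and 40.2 CPM in hy5-2, 7.19, 13.3 and 18.2 CPM in high-light Col-0 and 17.5, 17.6 and 33.1 CPM in low-light Col-0, at least 422-fold, 172-fold and 238-fold their CIM 4D levels. EXPA7 had 26.7, 42.5 and 43.8 CPM at SIM 4D in hy5-2 and 10.05, 15.4 and 20.2 CPM in high-light Col-0, a difference of 1.24 ± 0.26 (adjusted p = 0.00249). For both expansins the libraries of hy5-2 and high-light Col-0 did not overlap at SIM 4D. The difference for EXPA18, 1.14 ± 0.31 (adjusted p = 0.0262), was lost when high-light Col-0 replicate 2, hy5-2 replicate 2 or hy5-2 replicate 3 was left out (adjusted p = 0.085, 0.0594 and 0.0889). RHS18, named root hair specific by RefSeq, had 19.5, 20.1 and 27.5 CPM at SIM 4D in hy5-2 and 6.95, 7.58 and 11.3 CPM in high-light Col-0, a difference of 1.32 ± 0.22 (adjusted p = 0.000211).

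Among the 9 peroxidases, enzymes that cross-link or loosen walls, 9 rose in high-light Col-0 and 8 in hy5-2 at SIM 4D relative to CIM 4D. The shares of all tested genes were 27.4% and 26.2%. Some of the 9, such as AT1G34510, had few or no counts at CIM 4D and passed the filter on low counts through SIM libraries. The peroxidase gene AT1G30870 had 1.39, 2.86 and 3.37 CPM at CIM 4D, 58.8, 81.2 and 104.5 CPM at SIM 4D, and 22.7, 27.8 and 33.1 CPM at SIM 8D in hy5-2. In high-light Col-0 it had 0.991, 1.65 and 1.58 CPM, 23.6, 37.0 and 52.4 CPM, and 9.78, 17.8 and 13.9 CPM at these stages. Its hy5-2 libraries at SIM 4D were all above those of Col-0, by 1.06 ± 0.26 (adjusted p = 0.00636). The peroxidase gene AT4G26010 had 24.8, 38.7 and 42.5 CPM in hy5-2 and 9.43, 16.1 and 22.8 CPM in high-light Col-0 at SIM 4D, a difference of 1.05 ± 0.25 (adjusted p = 0.00492). At SIM 4D 6 peroxidases were higher and 2 lower in hy5-2, against 9.83% and 10.4% of all tested genes. The lower ones, AT3G03670 and AT5G51890, lost that call without hy5-2 replicate 3 (adjusted p = 0.0639) and in all 6 fits without a library (adjusted p up to 0.233), respectively.

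Of the members with roles in tip growth or hair signalling, 4 are described here. COW1, a phosphatidylinositol transfer protein gene needed for hair tip growth, had 0.871 ± 0.185, 40.4 ± 6.79 and 13.9 ± 2.70 CPM (mean ± SD, n = 3) at CIM 4D, SIM 4D and SIM 8D in hy5-2, and 1.04 ± 0.207, 20.4 ± 4.96 and 10.5 ± 0.924 CPM in high-light Col-0. Its 3 hy5-2 libraries at SIM 4D, 38.0, 35.2 and 48.1 CPM, were above the 16.7, 18.3 and 26.0 CPM of high-light Col-0, a difference of 0.95 ± 0.14 (adjusted p = 2.03e-05). ROPGEF10, an activator of ROP GTPases in hairs, had 8.79, 9.12 and 11.2 CPM in hy5-2 and 4.59, 3.06 and 5.81 CPM in high-light Col-0 at SIM 4D, a difference of 1.08 ± 0.23 (adjusted p = 0.000915). HA7, a plasma membrane proton pump gene, had 65.7, 80.9 and 113 CPM in hy5-2 and 26.2, 35.1 and 50.2 CPM in high-light Col-0, a difference of 1.17 ± 0.22 (adjusted p = 0.000647). SHV2, which encodes a COBRA-like anchored wall protein, had 11.8, 16.01 and 21.03 CPM in hy5-2 and 4.71, 6.49 and 9.87 CPM in high-light Col-0, a difference of 1.12 ± 0.21 (adjusted p = 0.000367). The hy5-2 libraries of all 4 genes lay above those of high-light Col-0 at SIM 4D. ROPGEF10, HA7 and SHV2 were picked for their roles after their values were seen.

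**Figure D3:**
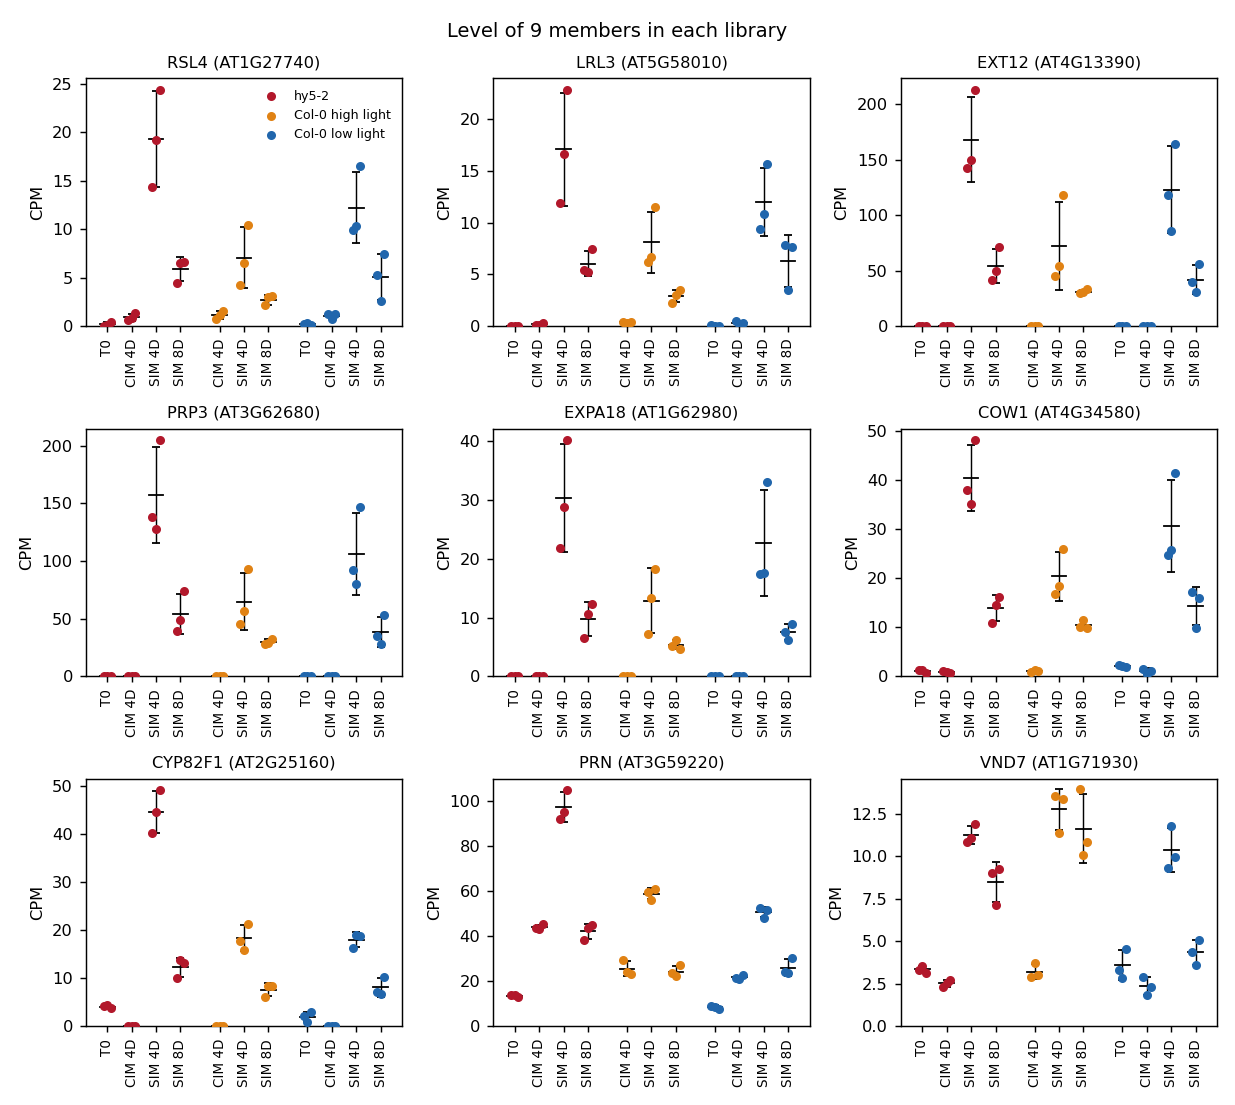
CPM (y axis) of 9 members by culture stage (x axis) in hy5-2, high-light Col-0 and low-light Col-0; dots are libraries and bars the mean ± SD of 3. RSL4 reaches a mean of 19.3 CPM at SIM 4D in hy5-2 against 7.09 CPM in high-light Col-0, while VND7 reaches 11.2 CPM against 12.8 CPM.

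The genotypes were then compared at each cultured stage in high light, to ask how the loss of HY5 bears on the SIM 4D peak. At SIM 4D, 110 of the 150 members were higher in hy5-2 than in Col-0 and 6 were lower, while 9.83% of all tested genes were higher and 10.4% lower. The median difference of log2(CPM + 1) was 0.99 among members and −0.0007 among all tested genes. At CIM 4D, 3 members were higher and 17 lower, against 6.28% and 9.42% of all genes. At SIM 8D, 55 were higher and 12 lower, against 9.86% and 13.6%, with a median difference of 0.59. The 57 members that reach the level of the filter in T0 and CIM 4D libraries alone were also counted apart. Of these, 3 were higher and 16 lower at CIM 4D, 32 higher and 6 lower at SIM 4D, and 19 higher and 10 lower at SIM 8D. Many of the other members had too few counts at CIM 4D to be called there. The count of 6 was 3 without hy5-2 SIM 4D replicate 3, and that of 17 was 10 without high-light Col-0 CIM 4D replicate 1 and 10 without hy5-2 CIM 4D replicate 3. The count of 55 was 19 without hy5-2 replicate 3, 28 without hy5-2 replicate 2, 23 without high-light Col-0 replicate 1 and 34 without high-light Col-0 replicate 3, and that of 12 was 7 without hy5-2 replicate 3.

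Of the root hair members, 33 of 34 were higher in hy5-2 at SIM 4D, against 9.83% of all tested genes. The median difference of the 34 was 1.23, with a range of 0.63 to 2.03 in log2(CPM + 1). Some of these calls rested on single libraries: EXPA18, EXT12 and most of the other extensins called among the 34 lost theirs without hy5-2 replicate 3. Without 1 library each, the count over the whole set was 82 to 108. At SIM 8D all 34 differences were still positive, with a median of 0.81, and 20 passed. That count of 20 was 2 without hy5-2 replicate 3 and 3 without high-light Col-0 replicate 1. At CIM 4D none of the 34 passed with edgeR, 1 was lower at an unadjusted p under 0.05, and DESeq2 called 6 lower. Many of the 34, such as EXPA18, had few or no counts at CIM 4D in both genotypes and could not be called there. Of the 116 other members, 77 were higher and 6 lower in hy5-2 at SIM 4D, with a median difference of 0.83. These 116 are not all genes from outside root hairs, since ROPGEF10 is among them.

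**Figure D4:**
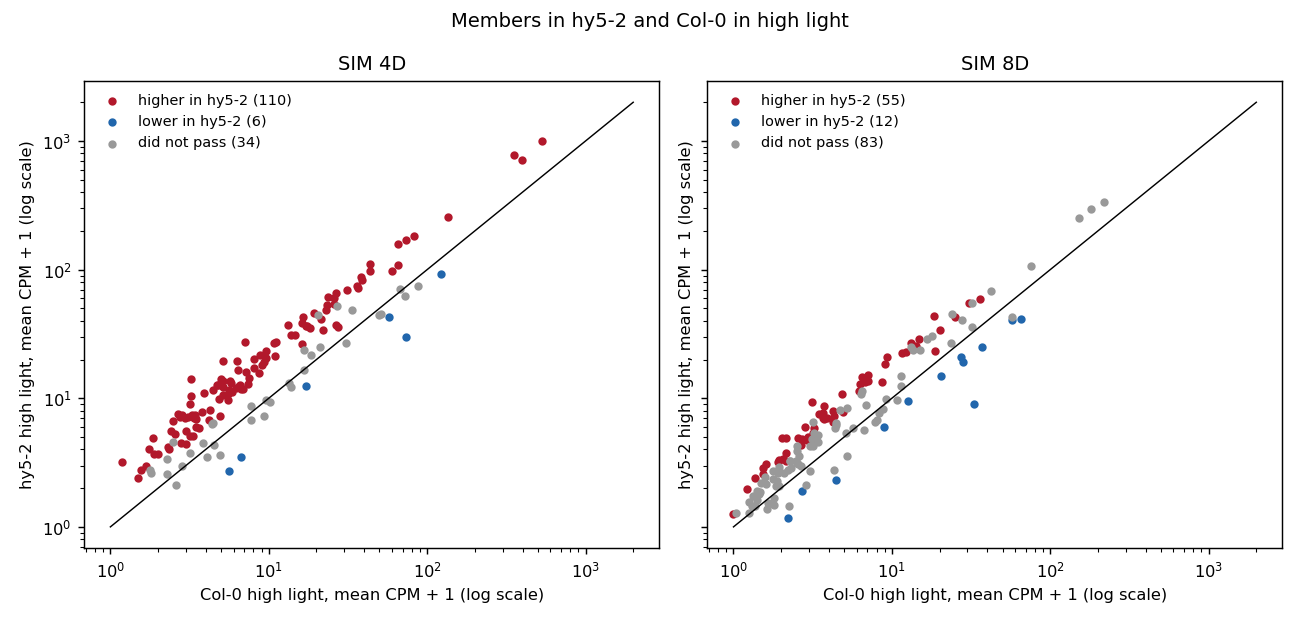
Mean CPM + 1 of each of the 150 genes in hy5-2 against Col-0, both in high light, at SIM 4D and at SIM 8D (log axes, 3 libraries each; colours give the call). At SIM 4D 110 genes were called higher and 6 lower in hy5-2, and at SIM 8D 55 higher and 12 lower.

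The step at SIM 4D relative to CIM 4D was larger in hy5-2 than in Col-0 for 16 members, against 4.26% of all genes, and 39 passed at an unadjusted p under 0.05. With DESeq2 the count was 33. A smaller step in hy5-2 was called for 3.41% of all genes and for 0 members by edgeR, 0 at an unadjusted p under 0.05 and 0 by DESeq2. All 16 larger steps were among the 57 members that reach the level of the filter in T0 and CIM 4D libraries alone. Where neither genotype had counts at CIM 4D, the difference of the steps could not be estimated, as for EXPA18 (1.14 ± 5101.8). Members without a call are thus not shown to have equal steps. XTH14, a xyloglucan-modifying enzyme gene of root hairs, changed at SIM 4D relative to CIM 4D by 3.58 ± 0.34 in hy5-2 and 1.14 ± 0.31 in high-light Col-0. The difference of the steps was 2.44 ± 0.47 (adjusted p = 0.00441). Its level at CIM 4D was 4.86, 6.52 and 5.22 CPM in hy5-2 and 8.92, 14.3 and 13.8 CPM in high-light Col-0, and at SIM 4D 47.6, 62.4 and 85.4 CPM in hy5-2 and 14.1, 25.4 and 37.3 CPM in high-light Col-0. All hy5-2 libraries were below those of Col-0 at CIM 4D and above them at SIM 4D. The rise in high-light Col-0 missed the threshold without SIM 4D replicate 3 (adjusted p = 0.0684).

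ABCG6 and LAC5 also had larger steps in hy5-2. ABCG6, a transporter gene of suberin formation, had 0.154, 0.513 and 0.132 CPM at CIM 4D and 9.12, 13.3 and 10.8 CPM at SIM 4D in hy5-2. In high-light Col-0 it had 1.16, 1.31 and 0.526 CPM at CIM 4D and 4.71, 5.47 and 5.57 CPM at SIM 4D. The libraries did not overlap at either stage, and the difference of the steps was 2.93 ± 0.58 (adjusted p = 0.00205). LAC5, a laccase gene of the family that polymerises lignin, had 2.35 ± 0.540 CPM in hy5-2 and 4.52 ± 0.677 CPM in high-light Col-0 at CIM 4D, but 20.5 ± 2.24 and 17.5 ± 0.888 CPM at SIM 4D, and its steps differed by 1.18 ± 0.26 (adjusted p = 0.00458).

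The change at SIM 8D relative to SIM 4D differed between genotypes for CLL2 alone, against 0.334% of all genes with a higher and 0.368% with a lower difference. CLL2, an epidermal patterning factor-like peptide gene, had 3.50, 3.95 and 2.81 CPM at SIM 4D and 0.452, 1.22 and 0.994 CPM at SIM 8D in hy5-2, against 1.86, 2.11 and 1.98 CPM and 1.505, 1.65 and 1.97 CPM in high-light Col-0. The difference of −1.72 ± 0.40 (adjusted p = 0.0436) was lost in 10 of the 12 fits without a library (adjusted p up to 0.171), and 0 members were called by DESeq2. At an unadjusted p under 0.05, 1 member had a higher and 13 a lower difference. The CLL2 call held without high-light Col-0 SIM 8D replicate 1 and without hy5-2 SIM 8D replicate 2.

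**Figure D5:**
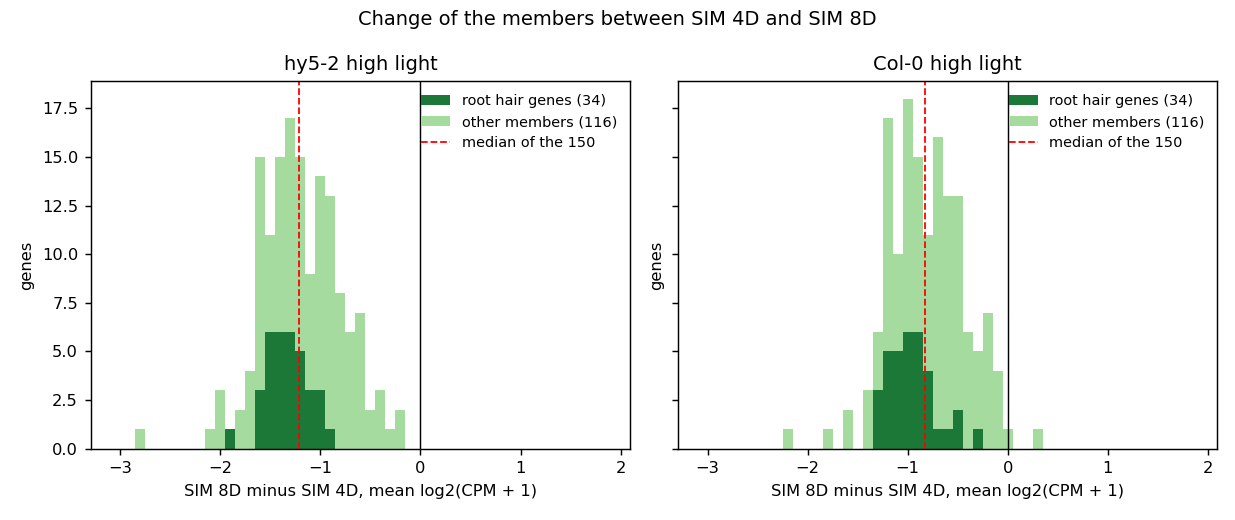
Number of members (y axis) by their mean log2(CPM + 1) at SIM 8D minus that at SIM 4D (x axis) in hy5-2 and in high-light Col-0; dark bars are the 34 root hair members, light bars the other 116 stacked on them, and the dashed line is the median. The median change is −1.22 in hy5-2 and −0.83 in high-light Col-0, and 139 and 107 members fell.

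Members outside the root hair group had their own courses. CYP82F1, a cytochrome P450 gene, and the adjacent acyltransferase gene AT2G25150 were both without counts at CIM 4D in high-light Col-0. CYP82F1 had 4.16, 4.37 and 3.89 CPM at T0, 0, 0 and 0.0661 CPM at CIM 4D, 40.3, 44.6 and 49.1 CPM at SIM 4D, and 10.03, 13.8 and 13.1 CPM at SIM 8D in hy5-2. In high-light Col-0 it had 17.9, 15.9 and 21.3 CPM at SIM 4D and 6.14, 8.44 and 8.42 CPM at SIM 8D. AT2G25150 had 19.0, 15 and 21.9 CPM in hy5-2 and 3.97, 4.37 and 4.06 CPM in high-light Col-0 at SIM 4D. Both were higher in hy5-2 without overlap, CYP82F1 by 1.27 ± 0.12 (adjusted p = 2.99e-08) and AT2G25150 by 2.16 ± 0.22 (adjusted p = 1.68e-07). CYP705A20, another cytochrome P450 gene, averaged 33.01 ± 4.40 CPM in hy5-2 and 20.9 ± 2.55 CPM in high-light Col-0 at SIM 4D, but 7.26 ± 0.952 and 7.81 ± 0.808 CPM at SIM 8D. It was higher in hy5-2 at SIM 4D by 0.64 ± 0.11 (adjusted p = 7.66e-05), while the SIM 8D difference of −0.09 ± 0.15 did not pass (adjusted p = 0.739).

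PRN, which encodes the pirin protein, was higher in hy5-2 at all 3 cultured stages. It had 43.5, 43.0 and 45.2 CPM at CIM 4D, 91.9, 94.9 and 104.9 CPM at SIM 4D, and 38.3, 43.4 and 44.7 CPM at SIM 8D in hy5-2. High-light Col-0 had 29.4, 24.3 and 23.2 CPM, 59.5, 56.0 and 61.0 CPM, and 23.6, 22.1 and 27.0 CPM at these stages. The differences were 0.78 ± 0.08, 0.72 ± 0.08 and 0.83 ± 0.09 (adjusted p = 2.93e-07, 8.09e-08 and 1.28e-07). The adjacent bHLH genes, AT4G25400 and AT4G25410, were the other members higher at CIM 4D, and were named after their values were seen. AT4G25400 had 24.1, 25.2 and 28.7 CPM in hy5-2 and 8.81, 8.60 and 11.8 CPM in high-light Col-0 at SIM 4D, a difference of 1.38 ± 0.14 (adjusted p = 9.28e-08).

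CKX1, an enzyme gene of cytokinin breakdown, had 107, 110.5 and 105 CPM at SIM 4D and 51.2, 61.8 and 60.7 CPM at SIM 8D in hy5-2. In high-light Col-0 it had 61.9, 62.9 and 67.2 CPM and 34.2, 36.0 and 34.9 CPM at these stages. It was higher in hy5-2 by 0.75 ± 0.10 at SIM 4D and by 0.75 ± 0.11 at SIM 8D (adjusted p = 3.53e-06 and 1.39e-05), without overlap at either stage. IRT2, an iron transporter gene of the root epidermis, had no count at T0 in hy5-2 or low-light Col-0, and at SIM 4D it had 16.5, 18.9 and 23.1 CPM in hy5-2 and 6.45, 8.53 and 10.9 CPM in high-light Col-0. Its difference was 1.12 ± 0.18 (adjusted p = 4.80e-05). The hy5-2 libraries of IRT2 were all above those of Col-0. SQP2, a squalene monooxygenase gene, had 11.97, 10.9 and 11.8 CPM in hy5-2 and 3.10, 4.01 and 3.97 CPM in high-light Col-0 at SIM 4D, and 3.16, 3.78 and 4.67 CPM against 0.752, 1.24 and 1.09 CPM at SIM 8D. It was higher in hy5-2 by 1.61 ± 0.21 at SIM 4D and 1.91 ± 0.33 at SIM 8D (adjusted p = 2.05e-06 and 0.000109). The cytochrome P450 gene CYP718 averaged 13.2 ± 1.15 CPM in hy5-2 and 4.01 ± 1.53 CPM in high-light Col-0 at SIM 4D, a difference of 1.61 ± 0.20 (adjusted p = 2.02e-06), and the methyl esterase gene MES15 averaged 13.4 ± 3.10 and 6.52 ± 1.74 CPM, a difference of 0.97 ± 0.19 (adjusted p = 0.000523).

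The genes at the head of the score, both pectin-degrading by name, did not share the genotype difference at SIM 4D. AT1G70500 had 49.4, 43.3 and 38.7 CPM at SIM 4D in hy5-2, 52.2, 49.0 and 49.9 CPM in high-light Col-0 and 42.3, 55.5 and 42.0 CPM in low-light Col-0. AT4G24430, of the rhamnogalacturonate lyase family, had 29.6, 25.9 and 22.4 CPM, 29.5, 30.3 and 29.2 CPM, and 29.9, 32.5 and 26.9 CPM in the same groups. The groups overlapped for both. Their differences at SIM 4D, −0.19 ± 0.11 each, did not pass (adjusted p = 0.247 and 0.299), whereas at CIM 4D both were lower in hy5-2, by −0.61 ± 0.13 and −0.72 ± 0.17 (adjusted p = 0.0021 and 0.00388). VND7, the master regulator of xylem vessel formation, had 10.8, 11.0 and 11.9 CPM at SIM 4D in hy5-2 and 13.5, 11.4 and 13.4 CPM in high-light Col-0. At SIM 8D it had 9.03, 7.11 and 9.24 CPM in hy5-2, 13.9, 10.09 and 10.8 CPM in high-light Col-0 and 4.36, 3.61 and 5.06 CPM in low-light Col-0. Its change at SIM 8D relative to SIM 4D did not pass in hy5-2 (−0.38 ± 0.14, adjusted p = 0.0535) or in high-light Col-0 (−0.15 ± 0.13, adjusted p = 0.479).

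The 6 members lower in hy5-2 at SIM 4D were AT3G03670, AT3G57020, AT4G15690, AT2G30540, AT5G51890 and EMB1030, most of them named after their values were seen. AT3G57020, of the calcium-dependent phosphotriesterase family, had 2.54, 1.17 and 1.85 CPM at CIM 4D, 26.5, 28.3 and 32.1 CPM at SIM 4D, and 6.78, 8.22 and 9.24 CPM at SIM 8D in hy5-2. High-light Col-0 had 20.6, 15.97 and 16.01 CPM, 74.3, 63.7 and 78.2 CPM, and 36.1, 26.3 and 33.7 CPM, and low-light Col-0 had 18.1, 14.1 and 18.9 CPM at SIM 4D. It was lower in hy5-2 by −3.24 ± 0.24, −1.32 ± 0.14 and −1.96 ± 0.19 at the 3 stages (adjusted p = 3.14e-09, 4.46e-07 and 5.19e-08), with no overlap at any of them. EMB1030, an alanyl-tRNA synthetase gene, had 46.0, 44.3 and 36.4 CPM in hy5-2, 60.0, 54.8 and 53.9 CPM in high-light Col-0 and 108, 89.1 and 85.1 CPM in low-light Col-0 at SIM 4D, and was lower in hy5-2 by −0.40 ± 0.09 (adjusted p = 0.00232). Besides AT3G03670 and AT5G51890, the thioredoxin family gene AT4G15690 lost its call without hy5-2 replicate 2 (adjusted p = 0.0512), and AT2G30540 of the same family without high-light Col-0 replicate 2, hy5-2 replicate 1 or hy5-2 replicate 3 (adjusted p up to 0.146).

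Light was compared within Col-0 as description, because the low-light levels chose the members. At SIM 4D 133 of the 150 members were lower in high light than in low light and 17 were higher, with a median difference of −0.57 in log2(CPM + 1) against −0.0151 over all tested genes, of which 54.2% were lower and 45.2% higher. All 34 root hair members were lower in high light at SIM 4D, with a median difference of −0.77, while at CIM 4D their median difference was 0.03. RSL4 averaged 7.09 ± 3.16 CPM in high light and 12.2 ± 3.71 CPM in low light at SIM 4D, and its libraries overlapped. Against low-light Col-0, hy5-2 in high light had a median difference of 0.34 at SIM 4D, with 127 members higher and 23 lower, against a median of −0.0164 over all tested genes, of which 44.6% were higher and 54.7% lower. The order at SIM 4D by median member level was thus 12 CPM in hy5-2, 6.01 CPM in high-light Col-0 and 9.47 CPM in low-light Col-0. Members kept the SIM 4D peak elsewhere as a matter of description too: SIM 4D was the highest stage for 150 in hy5-2 (15.2% of all tested genes) and for 148 in high-light Col-0, which has no T0 group (23.7% of all tested genes).

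Pathway lists were read in full at SIM 4D, members and other genes together. Of 39 root hair wall and growth genes, 37 were tested and 35 were higher in hy5-2 than in Col-0, with summed levels of 1790 to 2680 CPM in hy5-2 and 726 to 1460 CPM in high-light Col-0. As 29 of the 39 are members already counted above, this is not a separate result. Of 15 root hair regulators, 12 were tested, with 3 higher and 2 lower. Over all tested genes the shares were 9.83% higher and 10.4% lower. Among lists of other cell types, 10 of 13 tested endodermis genes and 14 of 17 tested suberin genes were higher, with summed levels of 248 to 266 CPM and 448 to 468 CPM in hy5-2 against 179 to 198 CPM and 293 to 306 CPM in high-light Col-0. Of 54 tested xylem genes 4 were higher and 4 lower, of 19 tested lignin genes 8 and 2, and of 18 tested phloem genes 2 and 1. In the root cap list 2 of 4 tested genes were higher, and in the list of type-A response regulators, which answer cytokinin, 4 of 9. At the earlier stages the root hair wall list summed to 105 to 109 CPM at T0 in hy5-2 and 112 to 132 CPM at T0 in low-light Col-0, with 31 and 32 of 39 genes under 1 CPM. The part of other cell types in the root hair result was not tested.

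Some members share sequence or position with other genes, and their counts are uncertain to that extent. A copy of at least 90% identity over at least 50% of the coding sequence exists for 9 members, among them MLP328, EXT6, RHS14 and the pair AT4G08400 and AT4G08410. The intervals of 6 members overlap a gene on the opposite strand, among them MLO15, whose partner AT2G44100 had 115831 counts against 1009, and EXO70C2, whose partner AT5G13980 had 72013 against 1136. The members include 10 pairs with at most 1 gene between them on the chromosome, such as LAC12 and AT5G05400, or XTH12 and XTH13.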

How the data were processed

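RNA of 33 libraries was sequenced. The values that the authors deposited are whole-number read counts for each locus and carry no normalization. Per the submitters' processing notes, build TAIR10 and the tools bedtools, edgeR, STAR and SAMtools were used. How strand and multiply aligned reads were handled is not given in the sources used here. Levels are CPM by library total. Counts of the 21 libraries outside the score were fitted in R 4.3.3 by edgeR 4.0.16. Its filterByExpr (at least 10 counts, total at least 15) left 20679 genes, all 150 members among them. The fit used TMM scaling, 1 coefficient per group, robust quasi-likelihood (common biological coefficient of variation 0.0731), two-sided tests, Benjamini-Hochberg adjustment over all genes. The code was tested on simulated data. Where a group had no count, the fold is a lower bound that puts 3 counts in the whole group. Gene lists cover root hair wall and growth, root hair regulators, xylem, lignin, endodermis, suberin, phloem, root cap and type-A response regulators. The members and lists were chosen with earlier results of these data known. Named genes are the 10 highest scores, up to 4 per list, and per contrast up to 4 per direction with a symbol, no overlap and the smallest adjusted p; others are said to be picked later. Alternatives were another scaling, no filter, all 33 libraries, DESeq2 1.42.0, a replicate block and leaving out each library; for membership, other pseudocounts, TMM and medians. Upstream windows, their coordinates and gene names are RefSeq TAIR10.1. Gene intervals are those of the authors' count table, whose starts can differ from RefSeq.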

Additional observations from a re-analysis of the deposited data

Results flagged for a closer look

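These results are given because the change over culture stages differed between genotypes by the test of the difference itself (edgeR). At SIM 4D relative to CIM 4D, 16 members changed more in hy5-2 than in high-light Col-0. All 16 were among the 57 members that reach the level of the filter in T0 and CIM 4D libraries alone. The difference of the log2 steps was 2.93 for ABCG6, a suberin transporter gene, 2.44 for the xyloglucan enzyme gene XTH14, 1.18 for the laccase gene LAC5 and 1.5 for RHS16, named root hair specific. RHS16 had 2.77, 2.49 and 2.18 CPM at CIM 4D and 10.098, 8.41 and 12.9 CPM at SIM 4D in hy5-2, against 3.39, 3.79 and 2.78 CPM and 2.73, 4.52 and 6.66 CPM in high-light Col-0, and its call was lost without high-light Col-0 CIM 4D replicate 2 (adjusted p = 0.0632) or hy5-2 CIM 4D replicate 3 (adjusted p = 0.0541). At SIM 8D relative to SIM 4D, 1 member differed, CLL2, with −1.72.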

How the results depend on the processing

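Each count of members was repeated with another scaling, without the filter on low counts, with all 33 libraries, with DESeq2, with a replicate block and without each library in turn. Replicate numbers were taken as names and did not enter the main fit. Deviations of same-numbered libraries correlated at −0.0376 to 0.385 (median 0.0741), and those of differently numbered ones at −0.263 to 0.121 (median −0.0252). Of 21 libraries, 19 correlated best with their own number, so same-numbered libraries shared part of their deviations. What the numbers mark is not given in the labels. With the replicate block, 32 members in place of 16 had a larger step to SIM 4D in hy5-2 and 3 in place of 1 a lower step to SIM 8D; with DESeq2 these counts were 33 and 0. At SIM 8D the block called 81 members higher and 14 lower in hy5-2. Without 1 library each, the count higher in hy5-2 ranged over 82 to 108 at SIM 4D and 19 to 61 at SIM 8D, and the count lower over 10 to 18 at CIM 4D, 3 to 5 at SIM 4D and 7 to 11 at SIM 8D. The counts of larger and lower steps ranged over 12 to 21 and 0 to 3. The rises at SIM 4D were 142 to 146 in high-light Col-0 and 146 to 148 in hy5-2, and the falls at SIM 8D 74 to 114 and 119 to 134. Of 150 members, 136 were kept with a pseudocount of 0.5, 106 with 5, 142 with TMM, 128 with group medians and 124 to 149 without 1 library. No named gene changed direction. Low counts limit genes near 1 CPM.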
